A study of Homo sapiens with 36 samples.

Results

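The genes of the cyclin D and RB1 step were followed through a KDM5 inhibitor experiment in JEKO, MINO and UPN-1, established lines of mantle cell lymphoma. Mantle cell lymphoma is a B cell tumour marked by the translocation that joins the CCND1 region to the immunoglobulin heavy chain locus. The 10 members were chosen by symbol and matched through GENCODE to 10 of the 58302 Ensembl IDs in the deposited counts. They are the D cyclins CCND1, CCND2 and CCND3, the kinases CDK4 and CDK6, the kinase inhibitors CDKN1A, CDKN1B, CDKN2C and CDKN2D, and RB1. Cells of each line received GS716054, a KDM5 inhibitor, or DMSO, its vehicle, for 24 h or 72 h, which makes 12 groups of 3 libraries and 36 libraries in all. No genotype, transgene or further agent is given for any group. The dose is not given in the sources used here, and all groups grew in RPMI-1640 with serum, without the other cells of a lymph node. KDM5 enzymes remove methyl groups from lysine 4 of histone H3, a mark found at active promoters.

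In G1, a D cyclin binds CDK4 or CDK6 and the pair phosphorylates the RB1 protein, which then lets go of E2F transcription factors so that genes of DNA replication are transcribed. The INK4 proteins encoded by CDKN2C and CDKN2D bind the kinases and keep the cyclin out. The proteins of CDKN1A (p21) and CDKN1B (p27) bind cyclin and kinase together and also restrain CDK2. RNA alone was measured here, and much of the control in this step lies in protein turnover and phosphorylation.

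Gene reads ranged from 8784815 to 14970876 per library. Levels are in CPM, a gene's read count relative to the library's total after TMM scaling with edgeR, and levels of different genes are compared only as CPM per kb of exonic length. Of the lineage markers, 7 of 7 B cell markers and 3 of 3 mantle cell lymphoma markers had a median of at least 1 CPM in each line. CCND1, itself a member, is among the lymphoma markers. Of plasma cell markers 3 of 3 also reached that level in each line. Of 5 T cell markers, 2 reached that level in JEKO and in UPN-1 and 1 in MINO, with CD2 at 0 in every library. Their sum ran from 53.7 to 108.5 CPM in JEKO, 10.8 to 36.7 in UPN-1 and 1.71 to 5.66 in MINO. Of 4 myeloid markers 1 passed in MINO alone, and of 4 erythroid and epithelial markers 1 passed in JEKO and in MINO. The labels call the replicates biological and do not say whether they were separate cultures, so p-values measure the spread between these libraries. In such bulk RNA, fewer cells with a transcript and less transcript per cell cannot be told apart.

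UPN-1 differed from JEKO and MINO in which parts of the pathway it expressed. RB1 and CDKN2C RNA were at or near 0 in UPN-1, and CDK6 was read in UPN-1 alone. In DMSO at 24 h, 4 of the 10 members differed between MINO and JEKO (edgeR quasi-likelihood test, adjusted p under 0.05), against 48% of all genes. Between UPN-1 and JEKO 8 differed, against 44.9% of all genes, and between UPN-1 and MINO 6 differed, against 44.4%. The counts of 4 and 6 are near these backgrounds, and no test of the share was made for the 8.

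RB1 lies at chr13:48303744-48599436 on the plus strand (ENSG00000139687, GRCh38, GENCODE release 44) and encodes the pocket protein that CDK4 and CDK6 phosphorylate. In JEKO its level ran from 101.8 to 275.4 CPM with a median of 199.6, and in MINO from 168.0 to 305.8 with a median of 249.7. The 12 UPN-1 libraries held 2 to 13 RB1 reads each, 74 in all, or 0.21 to 1.02 CPM. The UPN-1 values lay far below every library of the other lines at both times and under both treatments. The log2 fold change of UPN-1 in DMSO at 24 h was -9.71 (edgeR adjusted p = 8.52e-22, SE 0.293) against JEKO and -9.75 (adjusted p = 7.55e-22, SE 0.293) against MINO. MINO and JEKO differed by 0.04 (adjusted p = 0.853, SE 0.166).

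CDKN2C at chr1:50960745-50974634 (ENSG00000123080, plus strand) encodes the INK4 inhibitor p18. It had 683 to 1774 reads in each JEKO library (50.9 to 142.5 CPM, median 121.6) and 750 to 1345 in each MINO library (64.2 to 121.3 CPM, median 96.1). All 12 UPN-1 libraries had 0 reads, where 3 reads, the limit that a count of 0 allows, would be 0.212 to 0.309 CPM in a library. Set against that limit over the 3 libraries of DMSO at 24 h, CDKN2C was at least 1369-fold higher in JEKO and at least 1053-fold higher in MINO. MINO and JEKO themselves differed by -0.38 on the log2 scale (edgeR adjusted p = 0.249, SE 0.263). Intervals and limits of this kind cover counting error only.

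CDK6 at chr7:92604921-92836573 (ENSG00000105810, minus strand), the kinase partner of D cyclins in many blood cells, showed the opposite layout. It had 0 reads in all 24 libraries of JEKO and MINO. In UPN-1 it had 26 to 97 reads, from 2.78 to 8.82 CPM with a median of 3.6. This was, under DMSO at 24 h, at least 39.6-fold above JEKO and at least 34.5-fold above MINO. CDK6 was still a minor kinase in UPN-1, with a median of 0.29 CPM per kb beside 100.5 for CDK4.

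The neighbours of the silent genes were looked at after their values had been seen. FAF1, whose centre lies at -269 kb from that of CDKN2C, was also at 0 reads in all UPN-1 libraries, and had medians of 58 CPM in JEKO and 79.6 in MINO. On the other side RNF11, at 287 kb, had a median of 5.56 CPM in UPN-1 and 5.66 in JEKO, and EPS15, at 469 kb, had 31.7 and 30.5. Around RB1 the neighbours were read in UPN-1: ITM2B, at -200 kb, had a median of 196.1 CPM, and MED4, at -377 kb, had 125.5. RCBTB2, which lies inside the span of RB1, had 15.6 to 44 CPM in UPN-1 and a median of 33.4. LPAR6, also inside that span, was at 0 in UPN-1 but had a median of only 0.11 CPM in JEKO and in MINO. DNA was not measured, and the state of these loci was not tested.

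**Figure D1:**
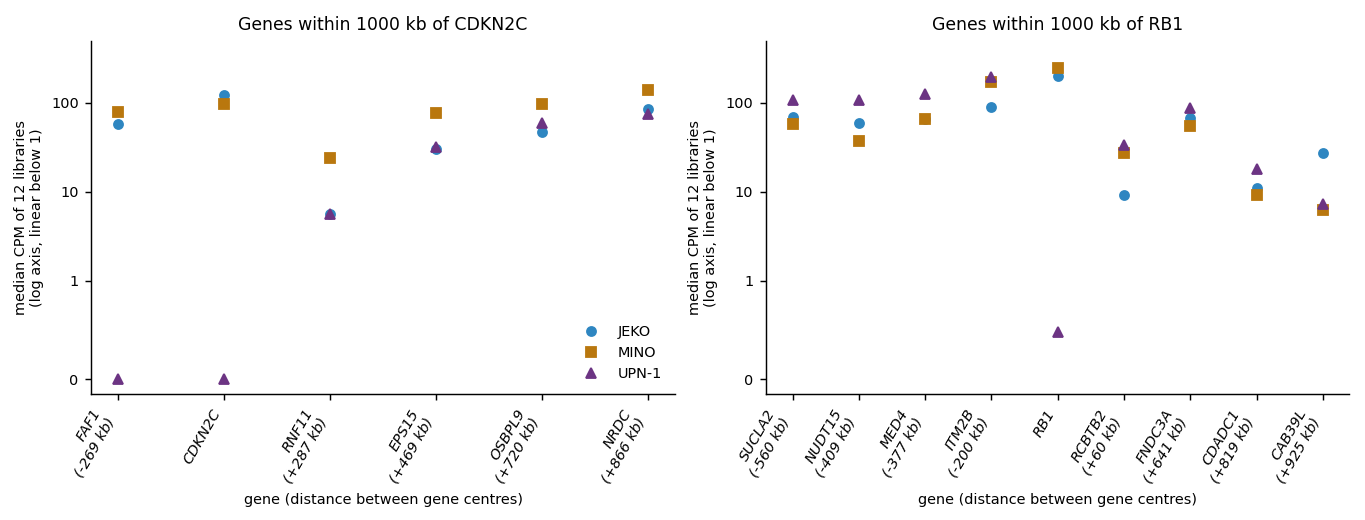
Median CPM of 12 libraries per line (log axis, linear below 1) for genes within 1000 kb of CDKN2C (left) and RB1 (right) whose median is at least 5 CPM in a line, in order along the chromosome with the distance between gene centres. UPN-1 (triangles) is at 0 for CDKN2C and FAF1 and at 0.48 for RB1, while its other neighbours have reads.

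CCND1 at chr11:69641156-69654474 (ENSG00000110092, plus strand) encodes cyclin D1, the cyclin placed under immunoglobulin control in this tumour. Its median was 2040 CPM in JEKO, 2048 in UPN-1 and 2029 in MINO. In DMSO at 24 h it did not pass the test between any lines: MINO against JEKO gave -0.43 on the log2 scale (edgeR adjusted p = 0.0507, SE 0.182), UPN-1 against JEKO -0.08 (adjusted p = 0.764, SE 0.182) and UPN-1 against MINO 0.35 (adjusted p = 0.115, SE 0.182). DESeq2 called the first of these, at -0.45 with an adjusted p of 0.029. Per kb of exon, CCND1 made up between 95.4% and 98.5% of the summed D cyclin level in every library.

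CCND2 at chr12:4269771-4305353 (ENSG00000118971, plus strand), the cyclin D2 gene that normal B cells use when they divide, was a minor cyclin and differed between lines. In DMSO at 24 h MINO had 16.5, 22.9 and 26.7 CPM, JEKO 0.98, 0.85 and 0.75, and UPN-1 0.19, 0.11 and 0.22, the last from 1 to 3 reads a library. The groups did not overlap. MINO exceeded JEKO by 4.67 on the log2 scale (edgeR adjusted p = 7.56e-10, SE 0.466). UPN-1 lay below JEKO by a log2 fold change of -2.19 (adjusted p = 0.0262, SE 0.805), a call that was lost without JEKO replicate 1 or without any UPN-1 replicate (values from -1.99 to -2.42 in those fits).

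CCND3 at chr6:41934934-42050357 (ENSG00000112576, minus strand), the cyclin D3 gene of germinal centre B cells, was lower in MINO. DMSO libraries at 24 h had 43.8, 37.3 and 51.8 CPM in MINO, against 74.7, 80.7 and 83.3 in JEKO and 85.4, 74.1 and 75.9 in UPN-1. The MINO values lay below all 6 others. The log2 fold change of MINO against JEKO was -0.84 (edgeR adjusted p = 0.000228, SE 0.18), and that of UPN-1 against MINO was 0.82 (adjusted p = 0.000339, SE 0.18).

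CDK4 at chr12:57747727-57756013 (ENSG00000135446, minus strand) was highest in JEKO, with a median of 714.7 CPM against 203.0 in MINO and 310.8 in UPN-1. JEKO in DMSO at 24 h had 878.4, 1001 and 1071 CPM, MINO 267.2, 270.8 and 300.1, and UPN-1 344.2, 339.9 and 357.1. The lowest JEKO library was above every library of the other lines. The log2 fold change from JEKO was -1.82 in MINO (edgeR adjusted p = 1.51e-10, SE 0.168) and -1.50 in UPN-1 (adjusted p = 7.36e-09, SE 0.166). Of CDK4's exonic bases 44.2% overlap TSPAN31 on the other strand, whether reads were counted by strand is not given in the sources used here, and so reads of the pair may not have been told apart.

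Among the other inhibitors, CDKN1A at chr6:36676460-36687337 (ENSG00000124762, plus strand) was lowest in UPN-1. In DMSO at 24 h it had 11.9, 9.96 and 8.28 CPM there, 32.7, 28.2 and 30.1 in JEKO, and 73.8, 67 and 74.9 in MINO. The 3 lines did not overlap. UPN-1 was at a log2 fold change of -1.60 from JEKO (edgeR adjusted p = 0.000204, SE 0.335) and -2.84 from MINO (adjusted p = 3.32e-08, SE 0.341), and MINO was 1.24 above JEKO (adjusted p = 0.00143, SE 0.314).

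CDKN1B at chr12:12685498-12722369 (ENSG00000111276, plus strand), the p27 gene, was instead highest in UPN-1. Its medians were 128.2 CPM in UPN-1, 100.2 in MINO and 68.5 in JEKO, and in DMSO at 24 h UPN-1 exceeded JEKO by 0.93 on the log2 scale (edgeR adjusted p = 0.000681, SE 0.216). CDKN2D at chr19:10566460-10569059 (ENSG00000129355, minus strand), the INK4 gene for p19, was read in all lines, at medians of 18.3 CPM in MINO, 16.3 in JEKO and 12.3 in UPN-1. Its call of UPN-1 below JEKO, -0.65 (adjusted p = 0.0294, SE 0.243), was lost in 4 of the 6 fits that left out a library: those without JEKO replicate 1 or 3, or UPN-1 replicate 1 or 2. Per kb, CDKN2C was thus the higher of these INK4 members in JEKO and MINO (medians 40.3 and 31.8, beside 10.8 and 12.2 for CDKN2D). In UPN-1 only CDKN2D of the pair was read, at 8.16. INK4 genes outside the members were not looked at.

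**Figure D2:**
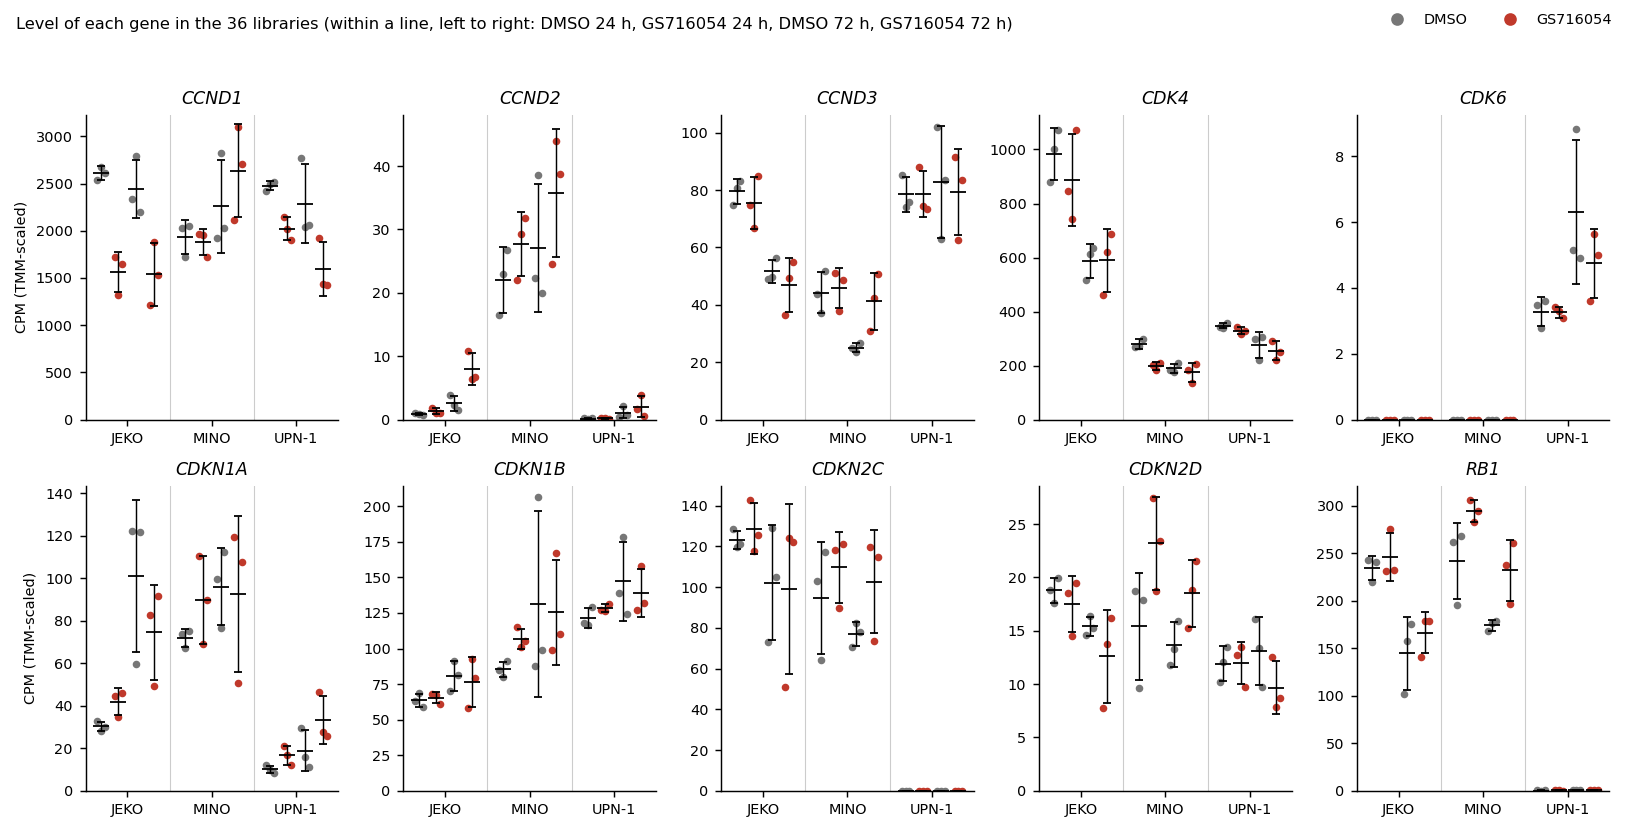
CPM of each gene (linear axes from 0) in every library, with points for libraries, and lines and bars for mean and SD of 3. CDKN2C and RB1 lie at or near 0 in UPN-1, CDK6 is above 0 in UPN-1 alone, and CCND1 runs from 1210 to 3094 CPM over all lines.

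Over the 12 groups, CDKN2C spanned 0 to 128.7 CPM and CDK6 0 to 6.3. Among the members read in every group, RB1 had the widest ratio of group means, from 0.27 CPM in UPN-1 DMSO at 24 h to 294.6 in MINO GS716054 at 24 h, and CCND1 the narrowest, from 1541 in JEKO GS716054 at 72 h to 2636 in MINO GS716054 at 72 h. When group means were put in order, few of the 11 neighbouring pairs were free of overlap between their libraries: 4 for CDK4, 3 each for CCND2 and RB1, 2 each for CCND3, CDK6, CDKN1A and CDKN1B, 1 each for CCND1 and CDKN2C, and 0 for CDKN2D. Groups at 0 reads, those of CDK6 in JEKO and MINO and of CDKN2C in UPN-1, overlap each other by necessity. The low counts of CDK6 and CDKN2C hence do not show poor separation of lines. The share over all genes was not computed.

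Promoter windows are shown for CCND3, CDK4, CDKN1A and CDKN2D, 4 of the members that a treatment fit below called, since KDM5 acts on a promoter mark. They run from 250 bases before to 50 after a start site, from RefSeq on GRCh38.p14, 5′ to 3′ on the gene's strand. CCND1 and CCND2 have no entry among the windows used, and the RB1 entry, which lies inside the gene, is not shown. The windows shown for CCND3, CDK4 and CDKN1A also lie within the annotated spans of their genes. For CCND3, which has 3 windows, the one with the most CpG is given. Capitals mark matches on either strand to CCGCCC (the GC box letters), CACGTG (an E-box that MYC can bind) or TTTNNCGC (letters of an E2F site).

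CCND3 chr6:41941759-41942058 (minus strand): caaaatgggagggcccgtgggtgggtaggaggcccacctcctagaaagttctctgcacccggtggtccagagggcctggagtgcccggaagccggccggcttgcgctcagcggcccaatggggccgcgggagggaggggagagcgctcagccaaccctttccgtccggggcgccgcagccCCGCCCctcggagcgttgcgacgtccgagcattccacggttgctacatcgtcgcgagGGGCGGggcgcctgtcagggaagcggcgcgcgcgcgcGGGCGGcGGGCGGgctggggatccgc
CDK4 chr12:57752261-57752560 (minus strand): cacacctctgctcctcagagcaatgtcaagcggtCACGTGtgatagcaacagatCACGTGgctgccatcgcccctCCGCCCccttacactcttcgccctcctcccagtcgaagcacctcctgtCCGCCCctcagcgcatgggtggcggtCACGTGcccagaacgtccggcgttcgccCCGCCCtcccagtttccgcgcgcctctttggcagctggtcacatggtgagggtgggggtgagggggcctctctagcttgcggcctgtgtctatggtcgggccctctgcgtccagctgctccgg
CDKN1A chr6:36678464-36678763 (plus strand): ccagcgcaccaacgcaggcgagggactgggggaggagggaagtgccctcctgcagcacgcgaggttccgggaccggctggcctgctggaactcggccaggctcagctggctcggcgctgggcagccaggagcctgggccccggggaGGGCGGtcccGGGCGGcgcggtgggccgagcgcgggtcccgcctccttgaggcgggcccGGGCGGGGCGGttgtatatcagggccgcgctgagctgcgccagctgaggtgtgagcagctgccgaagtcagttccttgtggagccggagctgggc
CDKN2D chr19:10568930-10569229 (minus strand): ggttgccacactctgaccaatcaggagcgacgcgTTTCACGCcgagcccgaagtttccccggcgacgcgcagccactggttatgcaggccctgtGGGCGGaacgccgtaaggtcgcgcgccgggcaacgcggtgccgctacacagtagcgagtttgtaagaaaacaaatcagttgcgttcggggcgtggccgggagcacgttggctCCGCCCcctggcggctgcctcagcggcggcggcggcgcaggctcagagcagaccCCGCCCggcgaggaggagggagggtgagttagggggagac

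CDKN1A held 4 matches to CCGCCC, with 74.3% G and C and 29 CpG, and the CCND3 window also 4, with 73.7% and 37 CpG. The CCND3 window was picked for its CpG, so a high count there was set by the choice. Its other windows held 5 CCGCCC and 29 CpG, and 0 CCGCCC and 3 CpG. CDK4 held 3 CCGCCC and 3 CACGTG, and CDKN2D 3 CCGCCC and 1 TTTNNCGC, which did not overlap them. Of all 35116 windows of 300 bases, 45% held CCGCCC, 7.26% CACGTG and 6.89% TTTNNCGC, and the median window had 58.7% G and C and 14 CpG. A match is a description of letters, and neither binding nor histone marks were measured.

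With GS716054, 1 change of a member within a line passed the first test, a 1.63-fold rise of CCND3 in MINO at 72 h. With replicates paired, CCND1, the most abundant, fell at 72 h in JEKO and UPN-1, CCND2 rose in JEKO and CDKN1A rose in UPN-1. The test was first run without regard to replicate numbers. Deviations from group means correlated above 0.1 in all 3 same-number pairs of DMSO and GS716054 libraries in every comparison except JEKO at 24 h. There the correlations were 0.131, 0.0552 and 0.213, all positive, so JEKO at 24 h missed this cut and is called not paired. The cut looks at same-number pairs only. In JEKO at 24 h different-number pairs reached at most 0.0316, below each same-number value. In MINO at 72 h, which met the cut, replicates 1 and 3 correlated across numbers at 0.213 and 0.332. Replicate 3 with itself gave 0.287, so the numbers 1 and 3 are not told apart there. The value of a paired fit, which holds the replicate number as a block within each time, stands beside the first where it changes a call. The paired fit was added after seeing the data.

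In JEKO at 24 h, edgeR called 0 of 9 members tested (all but CDK6, in MINO too), against 0.018% of all genes. One member, CCND1, had an unadjusted p under 0.05 in edgeR. DESeq2 called it where edgeR did not, against 0.181% of all genes. The fit with the block called 0.0899% of genes there and no member. In JEKO at 72 h it was 0 of 9 against 0.3% of genes, with 2 members at an unadjusted p under 0.05. Both were called by the paired fit, against 3.34% of genes, and by DESeq2, against 1.26%.

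In MINO at 24 h edgeR called 0 of 9 members, against 2.39% of genes. Unadjusted, 2 had a p under 0.05; the paired fit called 2 of 9, against 15.8% of genes, and DESeq2 1, against 6.43%. In MINO at 72 h edgeR called 1 of 9, against 5.56% of genes, the paired fit 2, against 20.2%, and DESeq2 1, against 8.91%. These shares of members were near the background of each fit.

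In UPN-1, where RB1 and CDKN2C had too few reads to test, edgeR called 0 of 8 members at 24 h against 0.0262% of genes, with 1 at an unadjusted p under 0.05, and 0 of 8 at 72 h against 0.334%, with 2. The paired fit called 2 of 8 at each time, against 1.5% of genes at 24 h and 7.47% at 72 h. DESeq2 called no member at either time, against 0.115% and 0.729% of genes.

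CCND1 in JEKO had 2536, 2680 and 2609 CPM in DMSO at 24 h and 1719, 1323 and 1645 with GS716054. At 72 h it had 2333, 2793 and 2201 CPM in DMSO and 1210, 1879 and 1533 with GS716054. Every GS716054 library lay below every DMSO library at both times. The log2 fold change was -0.75 at 24 h (edgeR adjusted p = 0.651, SE 0.204, DESeq2 adjusted p = 0.0168) and -0.66 at 72 h (edgeR adjusted p = 0.267, SE 0.203, DESeq2 adjusted p = 0.0193). In the paired fit the 72 h change was -0.68 (adjusted p = 0.0323, SE 0.15).

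CCND1 in UPN-1 had 2421, 2492 and 2511 CPM in DMSO at 24 h and 2142, 2022 and 1906 with GS716054. At 72 h it had 2768, 2039 and 2058 CPM in DMSO and 1920, 1439 and 1426 with GS716054. Here too the groups did not overlap at either time, and replicate 1 was the highest of its group in both treatments at 72 h. Without pairing the log2 fold change was -0.30 at 24 h (edgeR adjusted p = 1, SE 0.163) and -0.50 at 72 h (adjusted p = 0.335, SE 0.164). The paired fit called both, at -0.30 (adjusted p = 0.0126, SE 0.0602) and -0.50 (adjusted p = 2.25e-05, SE 0.0603).

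CCND1 in MINO had 2029, 1724 and 2052 CPM in DMSO and 1964, 1952 and 1720 with GS716054 at 24 h. At 72 h it had 1923, 2821 and 2029 CPM in DMSO and 2110, 3094 and 2704 with GS716054. The groups overlapped at both times, and at 72 h GS716054 was the higher of each same-numbered pair. The log2 fold changes were -0.07 (edgeR adjusted p = 0.883, SE 0.187) and 0.21 (adjusted p = 0.555, SE 0.187), and the paired fit called neither.

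The difference among the 3 lines was tested as such. At 72 h edgeR called 0 of 10 members as differing among lines, against 1.01% of genes, with 4 at an unadjusted p under 0.05. DESeq2 called 1, CCND1, against 2.78% of genes. CDK6 and CDKN2C, at 0 in a line, can show no such difference. The paired fit called 5, CCND1 (adjusted p = 0.002), CCND2 (0.0113), CCND3 (0.00158), CDKN1A (0.000248) and CDKN2D (0.033), against 9.78% of genes. At 24 h edgeR called 0 against 0.106% of genes, with CCND1 alone at an unadjusted p under 0.05 (adjusted p = 0.606), and DESeq2 called none. With the block CCND1 was called at 24 h (adjusted p = 0.0323), but JEKO libraries at that time missed the cut for pairing by number.

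CCND1 overlaps LTO1 on the other strand over 10.4% of its exonic bases, so LTO1 is given beside it. LTO1 had group means of 406.6 to 589.8 CPM in MINO, but 16.6 to 24.3 in JEKO and 13.1 to 16 in UPN-1. Its log2 fold changes at 24 h and 72 h were 0.17 and 0.15 for JEKO, -0.08 and 0.40 for MINO, and -0.01 and 0.29 for UPN-1, of which the paired fit called the MINO value at 72 h, at 0.39 (adjusted p = 0.0377). Of the 10 genes listed around CCND1 on 11q13, 5 were tested in each line and edgeR called 0 in all 6 comparisons, against 0.018% to 5.56% of all genes. Paired, CTTN, a gene of the actin cytoskeleton at the far side of the list, rose by 1.46 in JEKO at 72 h (adjusted p = 0.00277) and by 1.38 in UPN-1 at 72 h (adjusted p = 4.96e-05). At 72 h the paired fit called 1 of 5 in JEKO, UPN-1 and MINO, against 3.34%, 7.47% and 20.2% of genes.

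IGHM, the constant gene of IgM on the immunoglobulin heavy chain locus, had log2 fold changes of the same sign as those of CCND1 in JEKO and UPN-1. In JEKO its log2 fold change was -0.51 at 24 h and -0.58 at 72 h, in UPN-1 -0.29 and -0.39, and in MINO 0.01 and -0.02. None passed edgeR without pairing, and the paired fit called the UPN-1 values (-0.29, adjusted p = 0.0159, and -0.39, adjusted p = 0.000253). Other constant genes of that locus fell further. edgeR called 5 of 9 lower in JEKO at 72 h, against 0.3% of all genes in either direction. The list median there was -1.70 against 0.00 over all genes. The 5 were IGHG2 at -3.15 (adjusted p = 0.0027, SE 0.399), IGHG4 at -2.69, IGHG1 at -2.36, IGHE at -2.27 and IGHG3 at -1.70. MINO at 72 h had 1 of 8, IGHG4 at -1.79 (edgeR adjusted p = 0.0051, SE 0.3), against 5.56% of genes, and UPN-1 none of 5, against 0.334%. In the paired fit at 72 h UPN-1 had 5 of 5 lower, against 7.47% of genes, and MINO 4 lower and 1 higher of 8, against 20.2%. The IGHG genes are near-identical copies, so the split of reads between them is uncertain. Across the 36 libraries with line means removed, the genes most like CCND1 out of 12883 were ZFPL1 (Pearson r 0.855), MLF2 (0.813) and IGHM (0.807). The libraries share treatment, time and replicate deviations, so this r is a description. The role of the translocation in these values was not tested.

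**Figure D3:**
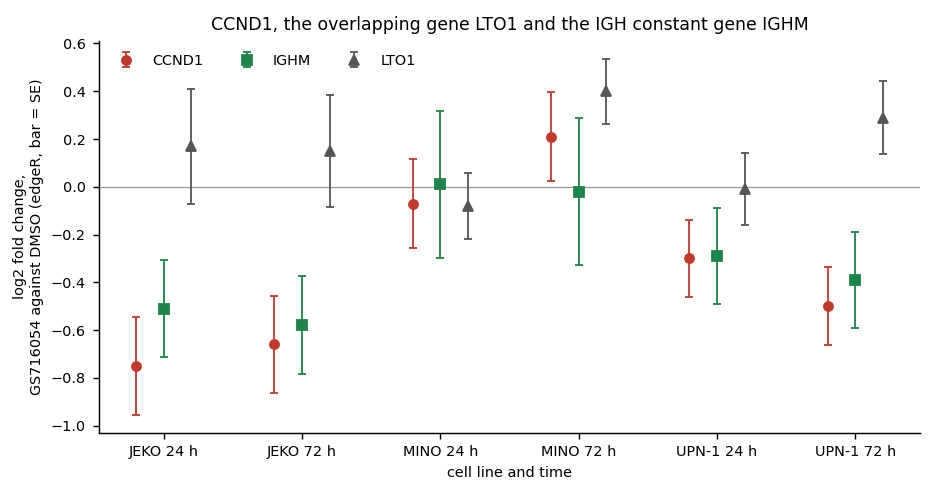
Log2 fold change of GS716054 against DMSO (edgeR, bars = SE, 3 libraries per group) for CCND1, IGHM and LTO1 in each line and time. CCND1 and IGHM are both below 0 in JEKO and UPN-1 and near 0 in MINO at 24 h, while LTO1 is at 0.17 and 0.15 in JEKO.

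CCND2 rose in JEKO at 72 h in the paired fit. It had 3.83, 2.29 and 1.55 CPM in DMSO (53, 29 and 21 reads) and 10.9, 6.43 and 6.68 with GS716054 (147, 89 and 97 reads). The groups did not overlap, and each pair of replicates moved up. This gave a log2 fold change of 1.64 (edgeR adjusted p = 0.08, SE 0.357) and 1.68 in the paired fit (adjusted p = 0.00486, SE 0.245). At 24 h JEKO had 0.98, 0.85 and 0.75 CPM in DMSO and 1.83, 1.01 and 1.1 with GS716054, a log2 fold change of 0.57 (adjusted p = 1, SE 0.439).

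CCND2 in MINO at 72 h had 22.4, 38.6 and 20 CPM in DMSO and 24.5, 44 and 38.7 with GS716054, a log2 fold change of 0.40 (edgeR adjusted p = 0.422, SE 0.272). In UPN-1 at 72 h it had 0.48, 2.09 and 0.74 CPM in DMSO and 1.65, 3.93 and 0.62 with GS716054, at most 50 reads a library, for 0.94 (adjusted p = 0.864, SE 0.6). The GS716054 libraries overlapped with DMSO in both lines. As the mean over the 3 lines at 72 h, CCND2 rose by 0.99 (edgeR adjusted p = 0.012, SE 0.243), the 1 member of 10 called, against 4.66% of genes. That call was lost without UPN-1 GS716054 replicate 2, at 0.72 with an adjusted p of 0.0887. CDK6 and CDKN2C, at 0 in a line, are among the 10 but have no estimate of the mean at either time. Paired, the mean test at 72 h called CCND2 (0.99, adjusted p = 1.7e-05) and CCND1 (-0.32, adjusted p = 0.00223), against 16.7% of genes, and DESeq2 called the same 2, against 6.9%. At 24 h the mean test called 0 of 10, against 0.929% of genes, with 3 at an unadjusted p under 0.05, and DESeq2 called CCND1, against 2.39%. The fit with the block, in which JEKO at 24 h missed the cut for pairing, called CCND1 (-0.36, adjusted p = 0.00209), CDK4 (-0.24, adjusted p = 0.0121) and CDKN1A (0.49, adjusted p = 0.000521).

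CCND3 rose in MINO at 72 h, the one change in a single line that passed without pairing. It had 25.1, 23.7 and 26.6 CPM in DMSO and 30.9, 42.3 and 50.7 with GS716054. All treated libraries were above all DMSO libraries, and the treated ones spread more. GS716054 minus DMSO was 0.70 on the log2 scale (edgeR adjusted p = 0.0457, SE 0.187, a 1.63-fold rise), and 0.68 in the paired fit (adjusted p = 0.0034, SE 0.135). Left out in turn, each DMSO replicate and GS716054 replicates 2 and 3 took the adjusted p past the threshold (0.0716 to 0.164). The value at 72 h was still no higher than MINO at 24 h, where DMSO had 43.8, 37.3 and 51.8 CPM and GS716054 51.2, 38 and 48.6 (log2 fold change 0.02, adjusted p = 0.961, SE 0.184). In JEKO and UPN-1 CCND3 changes ran from -0.13 to -0.01, with adjusted p from 0.925 to 1.

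CDK4 fell in MINO at 24 h in the paired fit. It had 267.2, 270.8 and 300.1 CPM in DMSO and 201.3, 183.1 and 209.9 with GS716054, without overlap. This was a change of -0.52 on the log2 scale (edgeR adjusted p = 0.0965, SE 0.155), and -0.53 in the paired fit (adjusted p = 0.00706, SE 0.113). TSPAN31, which overlaps it, had 159.7, 161.5 and 172.3 CPM in DMSO and 122.3, 125.0 and 137.6 with GS716054, so the RNA that changed cannot be told apart between the pair. At 72 h MINO CDK4 had 182.0, 177.0 and 208.7 CPM in DMSO and 184.7, 134.5 and 204.8 with GS716054 (-0.13, adjusted p = 0.676, SE 0.155). In JEKO and UPN-1 the 4 changes of CDK4 lay between -0.16 and 0.01. CDK6, tested in UPN-1 alone, had log2 fold changes of -0.03 (adjusted p = 1, SE 0.286) at 24 h and -0.39 (adjusted p = 0.889, SE 0.262) at 72 h.

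CDKN1A rose in UPN-1 in the paired fit. At 24 h it had 11.9, 9.96 and 8.28 CPM in DMSO and 21.1, 16.7 and 12.2 with GS716054, and at 72 h 29.6, 15.8 and 11.3 in DMSO and 46.3, 27.6 and 25.9 with GS716054. At 24 h the groups did not overlap. At 72 h they did, since replicate 1 was highest in both, but GS716054 was higher in each of the 3 pairs. The log2 fold changes were 0.72 (edgeR adjusted p = 1, SE 0.324) and 0.83 (adjusted p = 0.452, SE 0.303), and in the paired fit 0.70 (adjusted p = 0.00742, SE 0.131) and 0.88 (adjusted p = 4.87e-05, SE 0.112).

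CDKN1A in JEKO at 24 h had 32.7, 28.2 and 30.1 CPM in DMSO and 44.8, 34.5 and 46 with GS716054, a log2 fold change of 0.45 (edgeR adjusted p = 1, SE 0.27). At 72 h it had 122.0, 59.7 and 121.5 CPM in DMSO and 82.7, 49.1 and 91.8 with GS716054, for -0.44 (adjusted p = 0.748, SE 0.263; paired -0.41, adjusted p = 0.0589). The sign differed between times, and neither passed. In MINO the changes were 0.29 (adjusted p = 0.63, SE 0.275) at 24 h and -0.07 (adjusted p = 0.913, SE 0.273) at 72 h.

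Of the other inhibitors, CDKN2D passed the paired fit once. It in MINO at 24 h had 18.7, 9.67 and 17.9 CPM in DMSO and 27.4, 18.7 and 23.4 with GS716054, with all pairs upward and replicate 2 lowest in both groups. Its log2 fold change was 0.56 (edgeR adjusted p = 0.251, SE 0.245), and 0.59 in the paired fit (adjusted p = 0.015, SE 0.146). In UPN-1 at 72 h CDKN2D had a log2 fold change of -0.42 (adjusted p = 0.754, SE 0.219). CDKN1B had changes between -0.07 and 0.30 in the 6 comparisons, and CDKN2C between -0.04 and 0.40 in the 4 where it was read, with no call by either fit.

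RB1 in MINO at 72 h had 168.0, 176.6 and 179.1 CPM in DMSO and 238.3, 197.1 and 261.0 with GS716054. The treated libraries were all higher. The log2 fold change was 0.40 (edgeR adjusted p = 0.131, SE 0.147), and 0.39 in the paired fit (adjusted p = 0.0354, SE 0.12). At 24 h MINO RB1 had 262.4, 195.8 and 267.9 CPM in DMSO and 305.8, 283.5 and 294.5 with GS716054, for 0.26 (adjusted p = 0.396, SE 0.147). In JEKO the changes were 0.06 (adjusted p = 1, SE 0.183) and 0.20 (adjusted p = 0.883, SE 0.184). In UPN-1 RB1 reads numbered 3, 2 and 4 in DMSO and 7, 4 and 3 with GS716054 at 24 h, and 7, 9 and 9 against 5, 13 and 8 at 72 h, all far below the other lines.

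**Figure D4:**
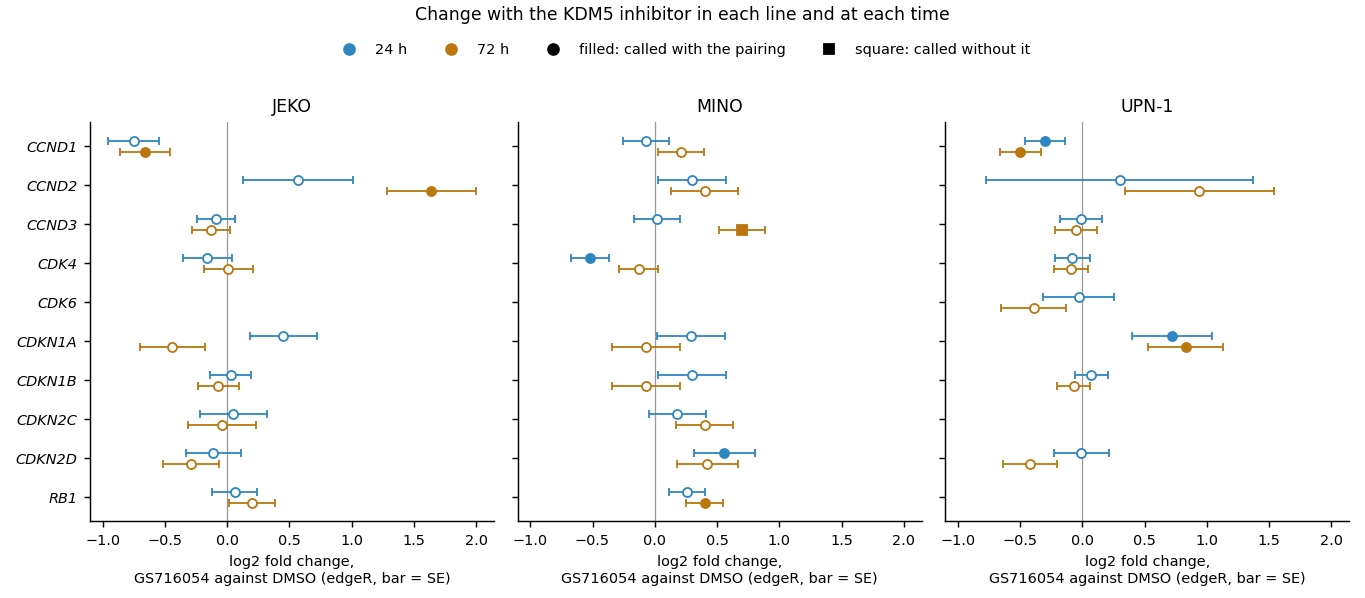
Log2 fold change of GS716054 against DMSO (edgeR without pairing, bars = SE, 3 libraries per group) for each gene tested in each line, at 24 h and 72 h. Filled symbols passed the paired fit and the square (CCND3 in MINO at 72 h, 0.70) also passed without pairing. CCND1 is below 0 in JEKO and UPN-1 at both times.

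The treatment effect at 72 h was also tested against that at 24 h. edgeR called 0 of 9 members in JEKO against 0% of genes, 0 of 9 in MINO against 0.0133%, and 0 of 8 in UPN-1 against 0%, with 1, 1 and 0 members at an unadjusted p under 0.05. DESeq2 and the fit with the block called no member.

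Time in culture changed members in JEKO. Between 24 h and 72 h in DMSO, edgeR called 5 of 9 members in JEKO, against 31.7% of genes. In MINO it called 0 of 9 against 0.0932%, with 4 at an unadjusted p under 0.05 and 3 called by DESeq2, against 6.68% of genes. In UPN-1 it called 0 of 8 against 1.47%, with 5 at an unadjusted p under 0.05 and none called by DESeq2. No member was called as differing among lines in this change, against 0.167% of genes (4 at an unadjusted p under 0.05, 0 by DESeq2), so the JEKO calls were not shown to be particular to JEKO.

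Among the JEKO calls CDKN1A rose most, from 32.7, 28.2 and 30.1 CPM at 24 h to 122.0, 59.7 and 121.5 at 72 h in JEKO, a log2 fold change of 1.74 (edgeR adjusted p = 0.0011, SE 0.273). It had 0.93 (adjusted p = 0.105, SE 0.32) in UPN-1 and 0.42 (adjusted p = 0.348, SE 0.274) in MINO. CCND2 rose in JEKO from 0.98, 0.85 and 0.75 CPM to 3.83, 2.29 and 1.55, by 1.57 (adjusted p = 0.0122, SE 0.413), a call lost without DMSO 24 h replicate 3 (adjusted p = 0.0524) or 72 h replicate 1 (0.0583).

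Falling members in JEKO were CCND3, CDK4 and RB1. CCND3 went from 74.7, 80.7 and 83.3 CPM to 49.1, 49.8 and 56.2, a log2 fold change of -0.62 (edgeR adjusted p = 0.0098, SE 0.156). CDK4 went from 878.4, 1001 and 1071 CPM to 516.4, 611.3 and 634.8 (-0.74, adjusted p = 0.0127, SE 0.197), and RB1 from 242.8, 220.2 and 241.4 to 101.8, 157.4 and 175.5 (-0.70, adjusted p = 0.0126, SE 0.184). None of these 3 genes overlapped between times. The CDK4 and RB1 calls were lost without DMSO 24 h replicate 3 (adjusted p = 0.0598 and 0.0502). MINO had values in the same direction that did not pass, -0.81 for CCND3 (adjusted p = 0.108, SE 0.187), -0.56 for CDK4 (adjusted p = 0.115, SE 0.155) and -0.47 for RB1 (adjusted p = 0.123, SE 0.147), and DESeq2 called all 3. In UPN-1 CDK6 had 0.94 (adjusted p = 0.0749, SE 0.272). CCND1 stayed within 0.22 of 0 in each line, with adjusted p from 0.469 to 0.745.

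**Figure D5:**
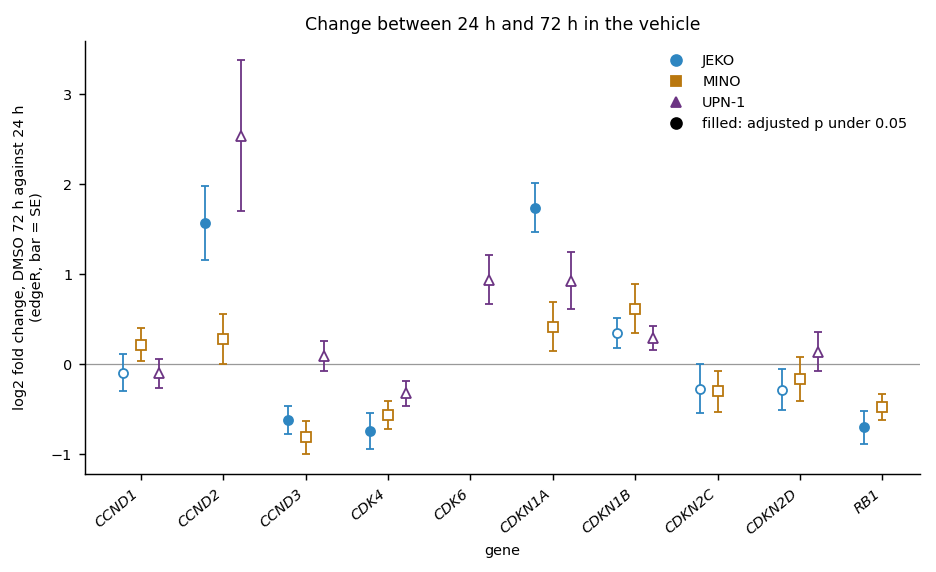
Log2 fold change of DMSO at 72 h against 24 h (edgeR, bars = SE, 3 libraries per group) for each gene tested in each line. CDKN1A is above 0 in all 3 lines and passed in JEKO (1.74), and CDK4 is below 0 in all 3 and passed in JEKO (-0.74).

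Downstream of RB1, genes that E2F factors are known to drive had list medians below those of all genes. Of 18 listed E2F target genes of G1/S, such as the MCM helicase subunits, edgeR without pairing called 0 in each of the 6 treatment comparisons. The shares over all genes there were 0.018% to 5.56%. The medians were -0.12 and -0.32 in JEKO at 24 h and 72 h, -0.47 and -0.18 in MINO, and -0.02 and -0.17 in UPN-1, where those of all genes lay between -0.03 and 0.01. The paired fit called 12 of 18 lower at 24 h in MINO, where it called 15.8% of all genes in either direction, but 0 in UPN-1, against 1.5%. At 72 h it called 7 lower in UPN-1, against 7.47% of genes, 6 in MINO, against 20.2%, and 3 in JEKO, against 3.34%, and in these comparisons none was higher.

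The paired calls in MINO at 24 h included CDC45, a part of the replicative helicase, at -0.77 (adjusted p = 0.00409, SE 0.151), and UHRF1, which maintains DNA methylation, at -0.75 (adjusted p = 0.00368, SE 0.143). CDT1, which loads the helicase, was called at 72 h in JEKO (-1.09, adjusted p = 0.00277, SE 0.142) and in MINO (-0.83, adjusted p = 0.00126, SE 0.14). In UPN-1, with 0.21 to 1.02 CPM of RB1, TK1, a thymidine salvage enzyme, was called at 72 h at -0.45 (adjusted p = 0.00112, SE 0.0796). The paired fit thus called lower E2F target RNA at 72 h in JEKO, MINO and UPN-1. A link to the level of RB1 was not tested.

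Of the 12 pocket protein and E2F genes, edgeR called 0 in all 6 comparisons, against 0.018% to 5.56% of all genes. Paired, E2F1, an activator of S phase genes, was lower in JEKO at 72 h (-0.76, adjusted p = 0.00709, SE 0.122), MINO at 24 h (-0.56, adjusted p = 0.0176, SE 0.144) and MINO at 72 h (-0.45, adjusted p = 0.0424, SE 0.144). In UPN-1 at 72 h the 3 paired calls, against 7.47% of genes, were E2F8 (-0.60, adjusted p = 0.000643), E2F7 (-0.43, adjusted p = 0.00299) and E2F2 (-0.25, adjusted p = 0.0161), all lower. RBL1, the p107 pocket protein, was lower in MINO at 24 h (-0.36, adjusted p = 0.0481), beside TFDP1 and E2F2. The paired fit called 4 of 12 lower in MINO at 24 h, against 15.8% of genes. At 72 h it called 2 in MINO (E2F1 and TFDP2), against 20.2%, and 1 in JEKO, against 3.34%.

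Among the 10 genes of the cyclin E and CDK2 step, 9 were tested in each line. edgeR called 0 of them in all 6 comparisons, against 0.018% to 5.56% of all genes. CDKN1C, the p57 inhibitor and a relative of CDKN1A, rose in the paired fit in MINO by 2.00 at 24 h (adjusted p = 0.00315, SE 0.375) and 1.42 at 72 h (adjusted p = 0.0088, SE 0.33), and in UPN-1 at 72 h by 0.37 (adjusted p = 0.00332, SE 0.0746). CDK2 was lower in JEKO (-0.48, adjusted p = 0.0364) and UPN-1 (-0.30, adjusted p = 0.00299) at 72 h. CDC25A, a phosphatase that activates CDK2, was lower in MINO at 24 h (-0.83, adjusted p = 0.00658), as was CCNE1 (-0.59). MNAT1 (-0.65) and CDK7 (-0.39) were lower in MINO at 72 h, and CCNA2 (-0.34) in UPN-1 at 72 h. The paired fit called 1 higher and 2 lower of 9 in MINO at 24 h, against 15.8% of genes. It called as many in MINO at 72 h, against 20.2%, and in UPN-1 at 72 h, against 7.47%. In JEKO at 72 h it called 1 lower, against 3.34%.

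In the list of 10 genes that turn over D cyclins and p27, edgeR called GSK3B, the kinase that marks cyclin D1 for export and breakdown, higher in MINO at 24 h (0.54, adjusted p = 0.0255, SE 0.109), and no other in any comparison. In MINO at 24 h edgeR called 2.39% of all genes. The paired fit called SKP2, the F-box protein that targets p27, lower in MINO at 24 h (-0.45, adjusted p = 0.0115) and 72 h (-0.33, adjusted p = 0.0451), and CKS1B, its cofactor, at 72 h (-0.64, adjusted p = 0.0285). Of 9 tested in MINO, it called 1 higher (GSK3B) and 1 lower at 24 h, against 15.8% of genes. At 72 h it called 2 lower, against 20.2%. These shares were near the background. Of 8 proliferation markers, edgeR called 0 in all comparisons, and the paired fit called 6 lower in MINO, led by BUB1 (-0.79), against 20.2% of all genes, and 3 in UPN-1, led by AURKA (-0.31), against 7.47%, both at 72 h. At 24 h it called AURKA alone, in UPN-1 (-0.34), against 1.5% of genes. The list median in MINO at 72 h was -0.48 in the first fit and -0.54 paired.

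Known p53 target genes other than CDKN1A were called in MINO, where CDKN1A itself was not. TP53INP1, a stress response gene, rose by 2.11 at 24 h (edgeR adjusted p = 0.0146, SE 0.364) and 1.69 at 72 h (adjusted p = 0.0146, SE 0.347), and ZMAT3 by 0.67 (adjusted p = 0.0178, SE 0.122) and 0.50 (adjusted p = 0.0315, SE 0.121). MDM2, the p53 ubiquitin ligase, rose at 72 h by 0.51 (adjusted p = 0.0346, SE 0.127). That made 2 of 15 tested at 24 h, against 2.39% of all genes, and 3 of 15 at 72 h, against 5.56%, and without pairing 0 in JEKO and UPN-1. Paired, MINO had 5 higher and 1 lower at 24 h, against 15.8% of genes, and 6 higher and 1 lower at 72 h, against 20.2%. JEKO at 72 h, where 3.34% of genes were called, had SESN1 (0.88) and TIGAR (0.60) higher and DDB2 (-0.65) and CCNG1 (-0.40) lower. UPN-1, where the paired fit called CDKN1A higher, had 0 higher and 1 lower of 14 at 24 h, against 1.5% of genes, and 1 higher and 3 lower at 72 h, against 7.47%.

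Of the enzymes the compound targets, KDM5B rose in the paired fit in MINO at 24 h (0.85, adjusted p = 0.000252) and UPN-1 at 72 h (0.40, adjusted p = 0.00457, SE 0.0837), and edgeR without pairing called none of the KDM5 genes.

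Genes whose values followed single members over the 36 libraries, with line means removed, are given by rank. For CCND2 they were TTC38 (Pearson r 0.917), TMC8 (0.902) and TLE6 (0.883), for CCND3 PFN1 (0.862), the gene with no symbol ENSG00000269243 (0.855) and RNF34 (0.853), and for CDKN1A PCK2 (0.811), ARHGAP4 (0.807) and GJD3-AS1 (0.796). CDK4 was followed by RANBP1 (0.964), EIF5A (0.959) and its overlapping partner TSPAN31 (0.954). CDKN2D was followed by ZNF672 (0.787), DYNC2I2 (0.786) and CHMP4B (0.765), and RB1 by ATL3 (0.747), APAF1 (0.689) and SNAP23 (0.681). These are descriptions over libraries that share conditions and depth.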

How the data were processed

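RNA-seq read counts per Ensembl gene were deposited for 36 libraries. Per the submitters' processing notes, HISAT2 2.2.1, HTSeq 0.13.5 and GRCh38 were used; strandedness and annotation release are not given in the sources used here. The authors' raw counts held 55.1% to 59.3% of reads in 5 summary lines (no feature, ambiguous and the like), which were left out. Symbols came from GENCODE release 44 (57532 of 58302 IDs). Members and lists were chosen with earlier results of these data known, and genes named from a list are those past the threshold or most like a member.

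Counts were tested with edgeR 4.0.16 (R 4.3.3; TMM, filterByExpr with a minimum count of 10, quasi-likelihood F test, Benjamini-Hochberg adjustment over all genes, called under 0.05). Within a line the fit used its 12 libraries, and between lines all 36. The scripts were tested on simulated data. Alternatives were DESeq2 1.42.0, its size factors in edgeR, no filter, a minimum count of 50, other library sets, each library left out, and the replicate number as a block, over a line or within each time. The number pairs libraries where correlations of deviations from group means exceed 0.1 in all 3 pairs: same-number, same-time correlations were 0.13 to 0.551 in MINO, 0.107 to 0.581 in UPN-1, and 0.291 to 0.593 in JEKO at 72 h, but as low as 0.0552 in JEKO at 24 h. Different-number, same-time correlations reached 0.332 in MINO, 0.0713 in JEKO and 0.0132 in UPN-1.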

Additional observations from a re-analysis of the deposited data

Results flagged for a closer look

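Responses to GS716054 at 72 h differed among the 3 lines for 5 genes, against 9.78% of all genes. The test of the difference held the replicate number as a block within each time, a fit added after seeing the data. CCND1 (adjusted p = 0.002) was at -0.66 in JEKO and -0.50 in UPN-1 but 0.21 in MINO. CCND3 (adjusted p = 0.00158) was at -0.13 in JEKO and -0.05 in UPN-1 but 0.70 in MINO. CDKN1A (adjusted p = 0.000248) was at 0.83 in UPN-1, -0.44 in JEKO and -0.07 in MINO. CCND2 (adjusted p = 0.0113) had its largest value in JEKO, 1.64, beside 0.94 in UPN-1 and 0.40 in MINO. CDKN2D (adjusted p = 0.033) was at 0.42 in MINO, -0.29 in JEKO and -0.42 in UPN-1. These are log2 fold changes of GS716054 against DMSO without the block, and without the block edgeR, with its low-count filter, called none of the 5 differences, while DESeq2 called that of CCND1 (adjusted p = 0.0176).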

How the results depend on the processing

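Over 119 member results, 1695 values were computed under other settings; 1567 kept direction and side of the threshold, 60 newly passed, 19 no longer passed and 49 changed sign, in 25 results that did not pass. No setting reversed a called value. Counts of members called that moved follow, and the cause was not tested. For treatment, JEKO at 24 h went from 0 to 1 (DESeq2), JEKO at 72 h from 0 to 2 (DESeq2, block within time) or 1 (no filter, replicate block over the line), MINO at 24 h from 0 to 1 (DESeq2, 6 libraries alone, replicate block) or 2 (block within time), MINO at 72 h from 1 to 0 (6 libraries alone) or 2 (block within time), UPN-1 at 24 h from 0 to 2 (block within time), and UPN-1 at 72 h from 0 to 1 (no filter) or 2 (either replicate block). For DMSO over time, MINO went from 0 to 3 (DESeq2, no filter, replicate block) or 2 (all 36 libraries), UPN-1 from 0 to 3 (no filter) or 4 (replicate block), and the difference among lines from 0 to 4 (no filter) or 3 (replicate block). The difference among lines in treatment went from 0 to 1 at 24 h (block within time), and at 72 h from 0 to 1 (DESeq2, no filter), 2 (replicate block) or 5 (block within time). The mean over lines went from 0 to 1 (DESeq2, no filter), 2 (replicate block) or 3 (block within time) at 24 h, and from 1 to 2 at 72 h (DESeq2 and either block). With each library left out, counts ran from 2 to 5 for DMSO over time in JEKO, 0 to 1 in MINO and 0 to 3 in UPN-1, from 0 to 1 for treatment at 72 h in JEKO and in MINO and for its difference among lines, and from 0 to 2 for the mean at 72 h.

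JEKO at 24 h missed the cut for pairing, and numbers did not pair different times throughout (3 of 12 cross-time pairs over 0.1 in JEKO, 6 in MINO, 7 in UPN-1). Block values there rest on a shared number. Beyond the calls named in the text, the block within time changed no treatment call of a member. The signs that turned were all of values that did not pass. CDK4 in JEKO at 72 h was -0.01 with no filter or the block within time, and -0.13 to 0.16 with a library left out; CCND3 in UPN-1 at 24 h was 0.01 with no filter, and -0.09 to 0.06. With a library left out, treatment values ran as follows. In JEKO at 24 h, CDKN1B ran from -0.02 to 0.08, CDKN2C from -0.03 to 0.12, CDKN2D from -0.20 to 0.01 and RB1 from -0.02 to 0.10. In JEKO at 72 h, CCND3 ran from -0.28 to 0.01, CDKN1B from -0.23 to 0.09 and CDKN2C from -0.24 to 0.27. In MINO at 24 h, CCND3 ran from -0.09 to 0.15 and CDKN2C from -0.03 to 0.36. In MINO at 72 h, CDK4 ran from -0.27 to 0.03, CDKN1A from -0.31 to 0.22 and CDKN1B from -0.33 to 0.37. In UPN-1 at 24 h, CDK6 ran from -0.13 to 0.04 and CDKN2D from -0.11 to 0.12, and at 72 h CCND3 from -0.21 to 0.13 and CDKN1B from -0.17 to 0.09. Means over lines ran from -0.04 to 0.04 for CCND3 at 24 h and from -0.16 to 0.09 for CDKN1B at 72 h. For DMSO over time, CCND2 in MINO ran from -0.04 to 0.45, and in UPN-1 CCND3 from -0.09 to 0.25 and CDKN2D from -0.05 to 0.30. Between lines, CCND3 ran from -0.08 to 0.02 (UPN-1 against JEKO) and RB1 from -0.04 to 0.18 (MINO against JEKO). Depth limits CCND2 in UPN-1, with as few as 1 read a library.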
